A study of Mus musculus with 45 samples.

Results

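The strain-specific response to diet was measured in RNA of pancreatic islets of Langerhans, the hormone-secreting cell clusters of the pancreas, as a contrast of diet effects between strains. For each gene the contrast is the diet effect in NZO/HlLtJ minus the mean of the diet effects in C57BL/6J and CAST/EiJ, where a diet effect is the log2 level on 44% fat minus that on 10% fat, averaged over females and males. It draws on all 45 libraries of the series: 14 of NZO/HlLtJ, an inbred strain that becomes obese and is prone to diabetes, 16 of C57BL/6J, a common laboratory strain, and 15 of CAST/EiJ, a wild-derived strain. All mice were wild type, per the labels. From 6 weeks of age until islets were taken at 16 weeks, they ate either the control chow, 10% fat plus fiber, or chow rich in fat and sugar, 44% fat plus fiber. The 3 strains, both sexes and both diets made 12 groups of 4 libraries, except NZO/HlLtJ males on either diet and CAST/EiJ males on 10% fat, with 3 each. Whether every library is from a mouse of its own is not in the labels, and the p-values therefore reflect library-to-library spread, which may be technical.

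Beta cells sense glucose through its uptake and metabolism and answer by releasing insulin from granules, and a mature beta cell keeps a set of transcription factors, transporters and channels for this task while it holds other genes silent. When the demand for insulin stays high, islets of susceptible mice are known for loss of this gene programme, for division of islet cells and for an influx of macrophages. A contrast of strains of this kind separates what the diet does in NZO/HlLtJ from what it does in mice of the other strains. A positive value means a larger rise, or a smaller fall, on 44% fat in NZO/HlLtJ, and both parts are given beside it below. Such bulk RNA cannot tell fewer cells of a type from less RNA per cell.

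Library totals were 57.2 to 110 M estimated counts (median 84.4 M). Insulin transcripts showed islet RNA in every library, with Ins2 at 28600 CPM or more (counts per 1000000, scaled with composition factors by the TMM method). Sex-linked transcripts matched the labels. Transcripts of another strain were most abundant in 5 libraries, called mixed below. In CAST/EiJ females on 44% fat, 39 transcripts that are near absent in this strain stood at medians of 9.84%, 3.74% and 3.88% of their C57BL/6J level in replicates 1, 2 and 4, and which strain they came from was not settled. The others were C57BL/6J female 44% fat replicate 2, with 23 NZO/HlLtJ transcripts at 1.86%, and NZO/HlLtJ male 44% fat replicate 3, with 14 C57BL/6J transcripts at 2.01% and 37 CAST/EiJ transcripts at 1.37%. The next, C57BL/6J male 44% fat replicate 2 (1.33% for NZO/HlLtJ transcripts) and NZO/HlLtJ female 44% fat replicate 3 (1.32% for those of C57BL/6J), lay close behind and were not counted among the mixed. All 5 mixed libraries were on 44% fat. Leaving them out keeps only replicate 3 of the CAST/EiJ females and replicates 1 and 2 of the NZO/HlLtJ males on that diet. For a call lost without them, mixing and the loss of libraries cannot be told apart. A further library stood apart from its group: NZO/HlLtJ male 10% fat replicate 3 had levels near those on 44% fat for many genes below. Slc2a2, which carries glucose into beta cells, stood at 268 CPM there against 581 and 522 CPM in the other males of its group. Exocrine (acinar) RNA varied widely, with a summed level of 29 acinar genes from 652 to 842000 CPM over the libraries, both ends in CAST/EiJ on 10% fat. These CPM are scaled with the composition factors and are not shares of all counts.

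In the NZO-specific contrast, 3037 of 20306 genes tested were higher (15.0%) and 2968 lower (14.6%) at an adjusted p under 0.05 in the quasi-likelihood test of edgeR with Benjamini-Hochberg adjustment, on which every adjusted p below rests. Changes of at least 2-fold were called for 1402 genes in the upward direction and 249 in the downward. The higher genes had a median contrast of 0.93 on the log2 scale, made of a median diet effect of 0.88 in NZO/HlLtJ, -0.02 in C57BL/6J and -0.09 in CAST/EiJ. The lower genes had a median of -0.43, made of -0.37, 0.01 and 0.08 in the same order. The NZO/HlLtJ term thus made up most of the contrast.

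The diet effect itself passed the test for 7270 genes in NZO/HlLtJ (35.8%), 5 in C57BL/6J (0.0246%) and 9 in CAST/EiJ (0.0443%). For the mean of the last 2 strains it passed for 7 genes (0.0345%). At an unadjusted p under 0.05, 755 genes stood out in C57BL/6J, 1566 in CAST/EiJ and 1629 in their mean. Of the genes called in the contrast, 5508 (91.7%) were called for diet in NZO/HlLtJ and not in the mean of the others, and 491 (8.18%) in neither. None moved in opposite directions with both terms called, which only the 7 genes called in the mean of the others could have done. By sign alone, that mean ran against the contrast for 2065 of the higher genes (68.0%) and 2272 of the lower (76.5%). The contrast subtracts that mean, which favours such signs. Both terms were called in the same direction for 2 genes, of which Kif11, a mitotic motor protein, was higher and 9930111J21Rik2 lower. In CAST/EiJ the latter was near absent, at 0.425, 0.276 and 0.306 CPM in the mixed female libraries and at most 0.225 CPM elsewhere. C57BL/6J held 6.44 to 11.4 CPM of it, and the part of the mixed RNA in its call was not tested.

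Against each strain alone, the NZO/HlLtJ diet effect differed from that of C57BL/6J for 3814 genes (18.8%) and from that of CAST/EiJ for 5209 (25.7%). CAST/EiJ differed from C57BL/6J for 4 genes (0.0197%), and for 700 at an unadjusted p under 0.05. Genes called in the contrast and against both strains with the same sign numbered 1602 higher (7.89%) and 1538 lower (7.57%). A further 840 higher and 883 lower genes of the contrast were called against CAST/EiJ and not against C57BL/6J, and 285 and 257 the other way round.

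Without the 5 mixed libraries the contrast held 1832 higher and 2189 lower genes, of which 1776 and 2107 were among the genes called with all libraries. Without NZO/HlLtJ male 10% fat replicate 3 the counts were 3615 and 3552, with 2982 and 2901 of the original genes among them. Scaling to library totals alone moved the median contrast of all genes from -0.023 to -0.241 and the counts to 1313 higher and 2764 lower, or 32.2% higher in place of 50.6%, so that small rises below depend on the TMM scale. Values of single genes are given on that scale. The medians of the hypoxia list (0.04), of nuclear oxidative phosphorylation (0.06) and of alpha cell genes (0.12) turned to -0.15, -0.16 and -0.08 with library totals.

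**Figure D1:**
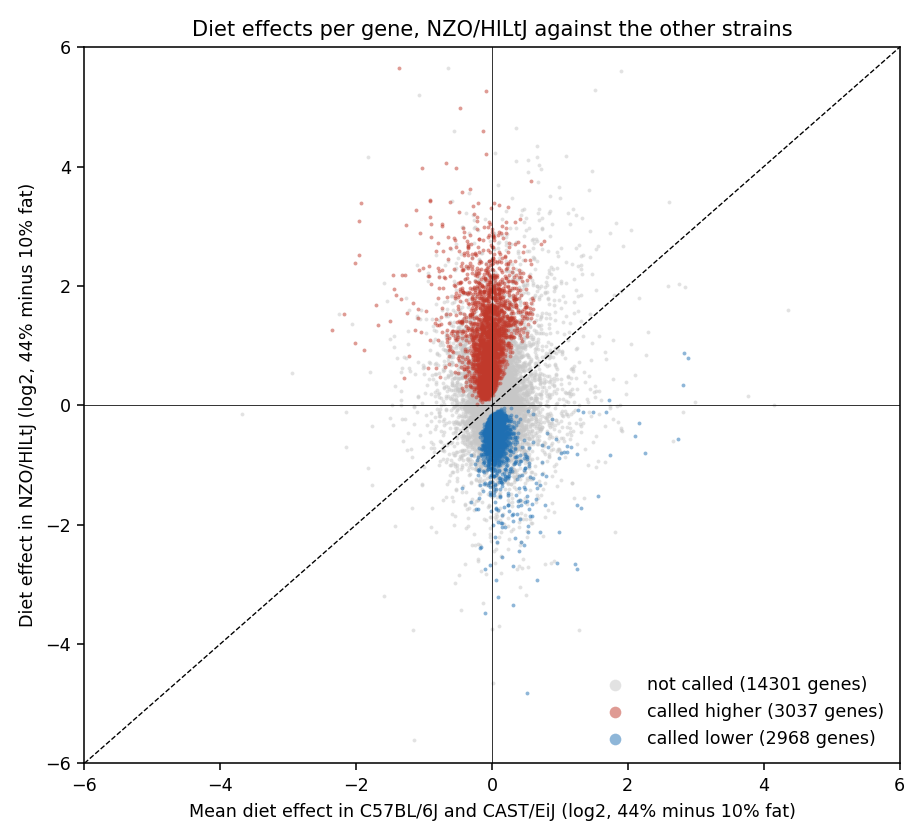
Diet effect of each of 20306 genes in NZO/HlLtJ (vertical axis, log2, 44% minus 10% fat) against the mean diet effect in C57BL/6J and CAST/EiJ (horizontal axis, log2). Red points are the 3037 genes higher and blue points the 2968 genes lower in the contrast, grey points were not called, the dashed line marks equal effects, and 6 genes lie outside the axes. The coloured cloud stretches along the vertical axis, to larger values above 0 than below it.

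Among the genes of smallest p in the upward direction were markers and receptors of macrophages and a few genes of metabolism. C1qc codes for a chain of complement C1q that macrophages make (chromosome 4, 136889804 to 136893065, GRCm38). Its level was 5.22, 4.48, 5.81 and 4.53 CPM in NZO/HlLtJ females on 10% fat and 21.6, 8.9, 14.0 and 17.9 CPM on 44% fat. In NZO/HlLtJ males it was 6.96, 11.8 and 21.9 CPM on 10% fat and 52.3, 53.7 and 95.6 CPM on 44% fat. The diets did not overlap within either sex, and the males on 44% fat stood above all other libraries. In the 31 libraries of the other strains it lay between 6.31 and 12.4 CPM, with a median of 8.66. The contrast was 1.94 (SE 0.22, adjusted p = 6.34e-07), with diet effects of 1.97 in NZO/HlLtJ, 0.05 in C57BL/6J and 0.01 in CAST/EiJ.

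Dbi codes for a protein that binds acyl-CoA and whose cleaved peptides act on benzodiazepine binding sites (chromosome 1, 120113280 to 120121078). It stood at no more than 22.8 CPM in NZO/HlLtJ females on 10% fat and at 26.6 to 38.4 CPM on 44% fat, and at 23.1, 27.4 and 34.9 CPM against 59.4, 53.6 and 87.8 CPM in the males. No library of the other strains went above 23.7 CPM. Its contrast was 1.05 (SE 0.13, adjusted p = 9.7e-07). Pfkfb3, which makes the activator of phosphofructokinase in glycolysis, gave 1.59 (SE 0.19), Tlr13, a receptor for bacterial ribosomal RNA, 2.15 (SE 0.25), and Cxcl16, a chemokine, 1.41 (SE 0.18), each with an adjusted p of 9.7e-07 or less. Scarf2, a scavenger receptor (1.44), Emilin2, a matrix glycoprotein (2.30), and Parp3, a DNA repair enzyme (1.44), were among the same genes, as were C1qb, another chain of C1q (1.89), and Fcgr3, a receptor for antibodies (1.93).

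Among genes called against both other strains with a mean of at least 1 CPM, the 6 largest positive contrasts included genes that are near silent in the other strains. Il1rn, the antagonist of the interleukin 1 receptor (chromosome 2, 24336853 to 24351494), was at 0.157 to 0.55 CPM in NZO/HlLtJ females on 10% fat and 1.86 to 3.58 CPM on 44% fat. Males held 0.546, 1.17 and 4.21 CPM against 8.89, 6.66 and 11.1 CPM. The 31 other libraries held at most 0.548 CPM, and the contrast was 2.97 (SE 0.55, adjusted p = 0.000123). Slc5a10, a sugar transporter, was at 0.0991 to 0.146 CPM and 0.272, 8.27, 8.48 and 4.1 CPM in the females, and at 0.371, 1.08 and 81.2 CPM against 108, 79.6 and 103 CPM in the males. The third of the males on 10% fat thus sat with the 44% group. The contrast of Slc5a10 was 3.94 (SE 0.85, adjusted p = 0.000837) with this library and 6.56 without it. Prss3, a trypsinogen (5.35, SE 1.23), Il2rb, a receptor chain of lymphocytes (3.18, SE 0.79), and Lyz2, the lysozyme of macrophages (2.84, SE 0.51), were others of the 6. Reads of the trypsinogen and lysozyme families can be split between near-identical copies, so single members are uncertain.

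Zfp607, a zinc finger gene and the last of the 6 (2.86), was nearly absent from NZO/HlLtJ. It was at 2.86 to 6.59 CPM in the other strains and at 0 to 0.206 CPM in NZO/HlLtJ, with the highest value in the mixed male library on 44% fat. Its adjusted p of 0.0329 became 0.398 without the mixed libraries. Of the genes tested, 135 were near absent in 1 strain, and 13 of the higher and 11 of the lower genes were among them.

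The gene of smallest p overall was lower. Cib3, a calcium and integrin binding protein (chromosome 8, 72204335 to 72212837), stood at 2.72, 2.76, 1.96 and 3.05 CPM in NZO/HlLtJ females on 10% fat and at 1.61, 1.06, 0.375 and 0.868 CPM on 44% fat. In the males it was at 1.98, 2.44 and 0.481 CPM on 10% fat, and at 0.0658, 0.0794 and 0 CPM on 44% fat. The diets did not overlap in either sex, and the males on 44% fat had next to no transcript. The other strains held 2.63 to 6.21 CPM, and the contrast was -3.30 (SE 0.34, adjusted p = 9.71e-08).

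Eno2, an enolase of neurons and endocrine cells (chromosome 6, 124760053 to 124769673), fell by less but evenly. Females went from 73.4, 74.0, 81.9 and 72.2 CPM to 49.5, 48.2, 47.9 and 48.2 CPM, and males from 49.9 to 64.2 CPM down to 27.3 to 39.0 CPM. Its contrast was -0.73 (SE 0.08, adjusted p = 6.34e-07), at -0.72 in females and -0.75 in males. Mreg, a protein of lysosome maturation, was at 27.7 to 48.0 CPM against 7.78 to 18.4 CPM in the females and at 27.4, 20.2 and 7.88 CPM against 4.41, 5.5 and 3.14 CPM in the males. Its contrast was -2.02 (SE 0.24, adjusted p = 9.7e-07). Vegfa, the growth factor by which beta cells maintain islet capillaries, gave -0.92 (SE 0.13, adjusted p = 3.68e-06), from 240 to 449 CPM on 10% fat to 110 to 277 CPM on 44% fat.

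The rest of the lower genes of smallest p were Rnf182 (-1.22), a ubiquitin ligase, and 5 more. Tmem25 (-1.12), a membrane protein of neurons, Jph3 (-1.37), which ties the endoplasmic reticulum to the cell surface, St8sia1 (-1.64), the synthase of ganglioside GD3, Syt14 (-0.77), of the synaptotagmin family, and Zdhhc2 (-1.37), an enzyme that attaches palmitate to proteins, had adjusted p-values of 6.34e-07 to 3.38e-06. Mcoln3, a cation channel of endosomes (-2.98, SE 0.50), and Grid2ip, a scaffold of glutamate receptors (-2.36, SE 0.37), were among the 6 largest negative contrasts by the same rule as above, with Cib3, Cyp4f39 (-2.68), T2 (-2.64) and RP23-144N15.10 (-2.28).

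**Figure D2:**
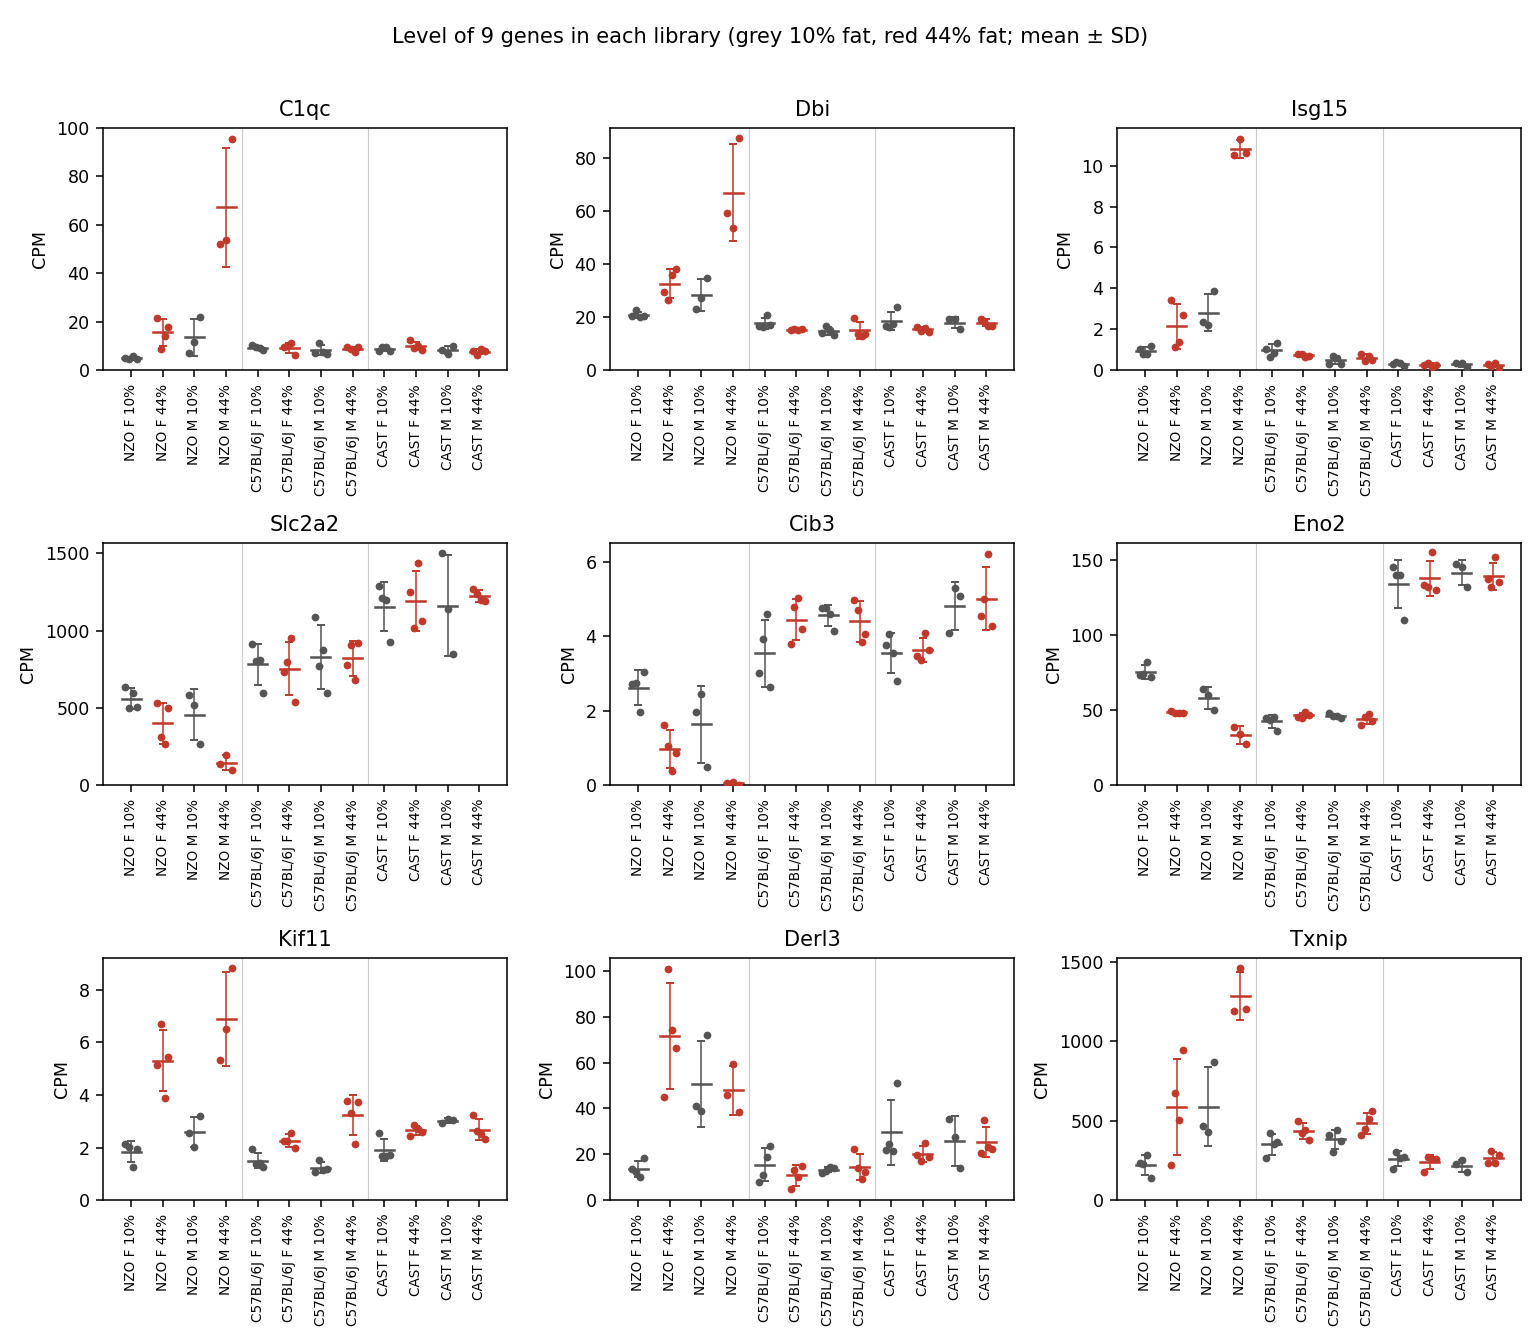
Level of 9 genes in CPM (vertical axis, from 0) in the libraries of each group of strain, sex and diet (horizontal axis); points are libraries, grey for 10% and red for 44% fat, and bars are the mean and SD. In NZO/HlLtJ the diets do not overlap within either sex for C1qc, Dbi, Cib3, Eno2 and Kif11, in males for Isg15, Slc2a2 and Txnip, and in females for Derl3. In the other strains they overlap except for Kif11 in both sexes of C57BL/6J and Dbi in females of both strains, lower on 44% fat.

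The genes of mature beta cells fell in NZO/HlLtJ and hardly moved in the other strains. Of 27 genes of beta cell identity, 17 were lower in the contrast and 0 higher, with a median contrast of -0.44 against -0.023 for all genes tested, and median diet effects of -0.49 in NZO/HlLtJ, -0.02 in C57BL/6J and 0.02 in CAST/EiJ. Against both other strains, 13 were lower. Without the mixed libraries the 17 became 14. With a score of acinar genes in the model, or without NZO/HlLtJ male 44% fat replicate 3, they became 13. Within females alone 3 were lower and 1 higher, and within males alone 21 were lower and 0 higher. Pax6, an endocrine transcription factor, gave -0.71 (SE 0.11), and Isl1, another, -0.80 (SE 0.13). Trpm5, a cation channel of the secretory response, gave -1.25 (SE 0.19). Slc30a8, the zinc transporter of insulin granules, gave -0.95 (SE 0.15), Gipr, through which the gut hormone GIP acts, -1.15 (SE 0.18), and Ucn3, a peptide of mature beta cells, -1.20 (SE 0.20), all with adjusted p-values of 1.6e-05 to 5.75e-05. In the same NZO/HlLtJ libraries the summed levels of macrophage and fibroblast genes were higher on 44% fat, as given below, and their part in this fall was not tested.

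Slc2a2 (chromosome 3, 28697903 to 28731359) fell in NZO/HlLtJ from a level that was already below that of the other strains on 10% fat. Its level was 638, 501, 598 and 504 CPM in NZO/HlLtJ females on 10% fat and 530, 309, 269 and 498 CPM on 44% fat. Males had 581, 522 and 268 CPM on 10% fat and 139, 195 and 98.1 CPM on 44% fat. The females' diets overlapped and the males' did not. The contrast was -1.09 (SE 0.21, adjusted p = 0.000174). On 10% fat NZO/HlLtJ already stood 0.93 below the mean of the other strains on the log2 scale (-0.93, adjusted p = 2.82e-06), and on 44% fat the difference was -2.02 (adjusted p = 1.04e-13). Such differences in level between strains, also those given for Isg15 below, depend on how strain variants were handled in counting.

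The insulin genes themselves did not pass the test. Ins1 gave -0.15 (SE 0.18, adjusted p = 0.553) and Ins2 -0.22 (SE 0.17, adjusted p = 0.346). Mafa, an activator of insulin genes, gave -0.35 (SE 0.28, adjusted p = 0.37), and Aldh1a3, a marker of failing beta cells, 0.59 (SE 0.28, adjusted p = 0.118). The contrasts of the hormones of the other endocrine cells were 0.10 for Gcg (glucagon), -0.25 for Sst (somatostatin) and -0.21 for Ppy (pancreatic polypeptide), with adjusted p-values of 0.192 to 0.797. The sign for Gcg reversed with library totals and without the mixed libraries. Of 8 alpha cell genes 1 was higher and 0 lower, with a median of 0.12 that became -0.08 with library totals. Of 5 delta cell genes 1 was higher and 1 lower, and of 2 gamma cell genes none was called.

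Secretory machinery gave a mixed picture. Of 24 granule and exocytosis genes, 6 were lower (25.0%) and 1 higher (4.17%), against 14.6% and 15.0% of all genes tested, with a median of -0.21. Rims2, a scaffold of the release site, gave -0.56 (SE 0.09, adjusted p = 2.04e-05). The gene that rose was Chgb, the granule protein chromogranin B (0.84, SE 0.22, adjusted p = 0.00414), which lost its call with library totals (adjusted p = 0.0656). Of 14 ion channel genes of secretion, 5 were lower and 1 higher, with a median of -0.22. The calcium channel subunit genes Cacnb2 (-0.56, SE 0.08, adjusted p = 1.37e-05) and Cacna1d (-0.55, SE 0.14, adjusted p = 0.004) were among the lower.

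Genes that mature beta cells normally hold silent rose. Of 18, 17 were higher in the contrast and 0 lower (14 without the mixed libraries), with a median of 1.07 made of 1.02 in NZO/HlLtJ, -0.06 in C57BL/6J and -0.05 in CAST/EiJ. Against both other strains 16 were higher. Oat, ornithine aminotransferase, gave 0.83 (SE 0.14, adjusted p = 4.53e-05), Zyx, a protein of focal adhesions, 0.93 (SE 0.16, adjusted p = 7.43e-05), and Rest, a repressor of neuronal genes, 1.12 (SE 0.21, adjusted p = 0.000181). Ldha, lactate dehydrogenase A, gave 1.08 (SE 0.25, adjusted p = 0.00154). Many of these genes are expressed in other cell types, whose markers rose as well, as given below, and their part in these values was not tested.

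Of 8 dedifferentiation markers 5 were higher and 0 lower, with a median of 1.12. They included Gast, the gastrin gene of the embryonic pancreas (3.02, SE 0.56, adjusted p = 8.96e-05), Cck, the gut hormone cholecystokinin (3.19, SE 0.86, adjusted p = 0.00455), and Sox9, a factor of duct cells and pancreas progenitors (1.54, SE 0.46, adjusted p = 0.0115). Cck was at 0.501 to 0.966 CPM in NZO/HlLtJ females on 10% fat and at 2.05, 19.5, 16.2 and 10.3 CPM on 44% fat. The males held 0.459, 2.27 and 21.5 CPM against 94.7, 78.7 and 94.1 CPM, and no library of the other strains held more than 0.5 CPM. The male library with 21.5 CPM is the same one that stood apart for Slc5a10. The diet effect of Cck was 3.77 in NZO/HlLtJ and 0.90 in C57BL/6J, and the difference against C57BL/6J alone had an adjusted p of 0.124.

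The immune lists held some of the largest medians. Of 19 macrophage genes 18 were higher and 0 lower, with and without the mixed libraries, at a median of 1.87. The median diet effects were 1.81 in NZO/HlLtJ, 0.05 in C57BL/6J and -0.26 in CAST/EiJ. Csf1r, the receptor of the growth factor that macrophages need, gave 1.88 (SE 0.24, adjusted p = 2.27e-06), and Adgre1, the F4/80 antigen, 1.92 (SE 0.24, adjusted p = 9.7e-07). The summed level of the 19 genes was 131 to 135 CPM in NZO/HlLtJ females on 10% fat and 285 to 414 CPM on 44% fat, and 168 to 487 CPM against 913 to 1580 CPM in the males. In the other strains it was 132 to 218 CPM on 44% fat and 143 to 488 CPM on 10% fat.

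Antigen presentation rose with them. All 10 MHC class II genes tested were higher in the contrast (7 without CAST/EiJ male 10% fat replicate 3), with a median of 2.01, as were all 11 genes of MHC class I and the immunoproteasome, with a median of 1.16. Cd74, the invariant chain of class II molecules, was at 62.9 to 72.4 CPM in NZO/HlLtJ females on 10% fat and 124 to 355 CPM on 44% fat. In the males it was at 101, 194 and 265 CPM against 693, 589 and 1240 CPM, and the other strains held 53.0 to 167 CPM. The contrast of Cd74 was 1.79 (SE 0.26, adjusted p = 1.19e-05), that of H2-DMb1, which helps load peptides, 2.21 (SE 0.27, adjusted p = 9.7e-07), that of H2-K1, a class I heavy chain, 1.24 (SE 0.23, adjusted p = 0.000117), and that of B2m, the class I light chain, 1.19 (SE 0.27, adjusted p = 0.00107). Of 17 inflammatory genes 8 were higher and 0 lower (5 higher with the acinar score), and of 16 lymphocyte and plasma cell genes 5 were higher and 0 lower, 2 without the mixed libraries and 10 without CAST/EiJ male 44% fat replicate 1. The lymphocyte list had median diet effects of 2.67 in NZO/HlLtJ, 1.04 in C57BL/6J and -0.41 in CAST/EiJ. Cd79a, a chain of the B cell receptor, gave 2.72 (SE 0.56, adjusted p = 0.000519), and Lck, a kinase of T cells, 1.59 (SE 0.44, adjusted p = 0.00642), with an adjusted p of 0.0621 without the mixed libraries.

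Interferon response genes rose in the contrast, with little movement in the other strains. Of 36, 30 were higher and 0 lower (25 without the mixed libraries, 17 with library totals), with a median of 1.13 made of 1.13 in NZO/HlLtJ, 0.13 in C57BL/6J and -0.06 in CAST/EiJ. Isg15, a ubiquitin-like protein induced by interferon (chromosome 4, 156199424 to 156200818), was at 1.02, 0.798, 0.786 and 1.21 CPM in NZO/HlLtJ females on 10% fat and 3.44, 1.12, 1.38 and 2.68 CPM on 44% fat. Levels in the males were 2.37, 2.22 and 3.87 CPM against 10.5, 11.3 and 10.6 CPM. The other strains held at most 1.35 CPM. Its contrast was 1.70 (SE 0.28, adjusted p = 4.44e-05), and NZO/HlLtJ stood 1.83 above the others on 10% fat and 3.54 on 44% fat on the log2 scale. Bst2, the antiviral protein tetherin, gave 1.46 (SE 0.23, adjusted p = 2.88e-05), and Irf7, a transcription factor of the response, 1.61 (SE 0.30, adjusted p = 0.000181).

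Promoters of this list share a short element. The core of the interferon-stimulated response element, searched as GAAANNGAA on both strands of windows of 300 bases around gene starts (RefSeq, GRCm38.p6), was found in 20 of the 26 list genes with a window (76.9%), of which 18 were called higher. The share was 8.56% of all 32851 windows, 8.81% of the genes tested with a window, and 244 of 2215 genes called higher and 187 of 2189 called lower held it. List genes with a window but no match were also called higher (Ifit2, Irf1, Irf7, Oasl2 and Xaf1), apart from Irf9. A match describes these letters and not a bound site. The windows of Isg15 (chr4:156200769-156201068, minus strand, 3 overlapping matches) and Bst2 (chr8:71537423-71537722, minus strand, 2 overlapping matches) are shown because both genes had the smallest p of the list and hold tandem matches, 5′ to 3′ on the strand of the gene with the matches in capitals.
Isg15: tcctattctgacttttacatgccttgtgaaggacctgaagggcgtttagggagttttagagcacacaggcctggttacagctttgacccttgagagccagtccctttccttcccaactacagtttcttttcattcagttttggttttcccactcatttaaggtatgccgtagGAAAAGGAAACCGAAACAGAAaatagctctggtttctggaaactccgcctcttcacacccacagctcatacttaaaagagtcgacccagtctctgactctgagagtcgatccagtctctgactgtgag
Bst2: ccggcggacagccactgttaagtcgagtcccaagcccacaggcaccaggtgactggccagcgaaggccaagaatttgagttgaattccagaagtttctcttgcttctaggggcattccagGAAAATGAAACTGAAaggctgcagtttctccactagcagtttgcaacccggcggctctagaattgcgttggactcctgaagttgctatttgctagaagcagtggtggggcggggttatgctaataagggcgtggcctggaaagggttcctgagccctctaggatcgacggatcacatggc

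Genes of connective tissue and ducts rose beside the immune genes. Of 19 fibroblast, mural cell and matrix genes, 18 were higher and 0 lower (16 without the mixed libraries), with a median of 1.29 made of 1.28 in NZO/HlLtJ, -0.13 in C57BL/6J and 0.04 in CAST/EiJ. Col3a1, a fibrillar collagen, gave 1.41 (SE 0.28, adjusted p = 0.000374), from 116 to 497 CPM on 10% fat to 222 to 1250 CPM on 44% fat in NZO/HlLtJ. The summed level of the 19 genes was 648 to 898 CPM in NZO/HlLtJ females on 10% fat and 1040 to 1900 CPM on 44% fat, and 642 to 2110 CPM against 2680 to 5260 CPM in the males. Col6a3, of collagen VI, gave 1.29 (SE 0.22, adjusted p = 6.03e-05), and Pdgfrb, a receptor of pericytes, 0.73 (SE 0.14, adjusted p = 0.000181, and 0.0543 with library totals). Of 11 duct genes 6 were higher and 0 lower, with a median of 1.38, among them Car2, a carbonic anhydrase (2.24, SE 0.37), Cftr, the chloride channel (2.26, SE 0.48), and Spp1, osteopontin (1.80, SE 0.35), which macrophages also make. The summed level of the 11 genes was 352 to 428 CPM in NZO/HlLtJ females on 10% fat and 500 to 879 CPM on 44% fat. In the males it was 445 to 820 CPM against 1080 to 1850 CPM. The narrower sum of 4 duct markers overlapped between the diets in NZO/HlLtJ, at 191 to 350 CPM and 201 to 353 CPM. Krt7 had the highest level of these markers, with a median of 146 CPM over all libraries against 4.51 CPM or less for the others.

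Endothelial genes moved little. Of 15, 9 were higher and 0 lower, with a median of 0.36, but 0 passed with library totals and 2 without the mixed libraries. Pecam1, an adhesion protein of vessels, gave 0.55 (SE 0.12, adjusted p = 0.00105, and 0.151 with library totals). Of 29 acinar genes 2 were higher and 0 lower, with a median of 1.52, and none was called without C57BL/6J male 10% fat replicate 2. Those 2 were the trypsinogen Prss1 (5.70, SE 1.64, adjusted p = 0.00862) and Nr5a2, an acinar transcription factor (1.54, SE 0.58, adjusted p = 0.0434), and neither passed with a score of acinar genes in the model. The summed level of the 29 genes overlapped between the diets in NZO/HlLtJ females, at 18200 to 90000 CPM on 10% fat and 42500 to 109000 CPM on 44% fat, and not in the males, at 45400 to 65900 CPM and 91300 to 212000 CPM. The list's median contrast was 2.94 in females and 0.20 in males, with 0 genes called in the difference. With the acinar score in the model the median turned to -0.32 with 11 genes lower, that of the Reg family from 0.88 to -0.68, and over all genes 2451 were higher and 2238 lower. No gene of 6 in the Reg family, 7 of Schwann cells or 5 of red blood cells was called. The part of these cell types in the other results was not tested.

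Cell division genes were higher in the contrast, and C57BL/6J had a positive median as well. Of 23 mitosis genes, 22 were higher in the contrast and 0 lower (18 with library totals, 20 without the mixed libraries), with a median of 1.16. The median diet effect was 1.58 in NZO/HlLtJ, 0.72 in C57BL/6J and 0.04 in CAST/EiJ. Against CAST/EiJ alone 22 were higher, and against C57BL/6J alone 11. Within C57BL/6J the diet effect passed the test for 2 of the 23, Kif11 and Ccnb2. Kif23 (1.54, SE 0.25, adjusted p = 3.35e-05) and Aurkb (1.54, SE 0.28, adjusted p = 0.000108) act at the division furrow, and Bub1b (1.28, SE 0.22, adjusted p = 7.55e-05) at the spindle checkpoint.

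Of the 5 genes with a diet effect in C57BL/6J, 4 act in mitosis: Kif11 (0.99), the cyclin Ccnb2 (1.09), the kinase Pbk (1.17) and the kinetochore protein Dsn1 (0.84). The fifth was Mc5r, a melanocortin receptor (2.79). Kif11 (chromosome 19, 37376403 to 37421859) was at 1.25 to 2.15 CPM in NZO/HlLtJ females on 10% fat and 3.9 to 6.71 CPM on 44% fat, and at 2.54, 2.04 and 3.2 CPM against 5.34, 6.51 and 8.84 CPM in the males. Its contrast was 0.89 (SE 0.18, adjusted p = 0.000321), called against CAST/EiJ (adjusted p = 4.83e-05) and not against C57BL/6J (adjusted p = 0.094). Ccnb2 gave 1.06 (adjusted p = 0.00237), Pbk 0.77 (adjusted p = 0.0285, 0.078 without the mixed libraries and 0.145 with library totals) and Dsn1 -0.02 (adjusted p = 0.962), and none of the 3 differed from C57BL/6J at adjusted p-values of 0.201 to 0.65. A missed threshold does not show that these effects were equal.

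DNA replication genes followed. Of 22, 18 were higher and 0 lower (9 with library totals), with a median of 0.57 and median diet effects of 0.61, 0.19 and -0.02 in NZO/HlLtJ, C57BL/6J and CAST/EiJ. Mcm6 and Mcm5, of the replicative helicase, gave 0.83 (SE 0.12, adjusted p = 9.58e-06) and 1.04 (SE 0.17, adjusted p = 3.18e-05). Of 11 genes of D cyclins, CDK4/6 and CDK inhibitors, 2 were higher (18.2%, and 1 gene with library totals) and 3 lower (27.3%). The shares of all genes tested were 15.0% and 14.6%. Cdk6, a kinase of cell cycle entry, gave 1.32 (SE 0.23, adjusted p = 6.57e-05), Ccnd2, the D cyclin that beta cells use, -0.71 (SE 0.14, adjusted p = 0.00038), and Cdkn1c, an inhibitor, 0.66 (SE 0.19, adjusted p = 0.009), without a call when the mixed libraries were left out (adjusted p = 0.0931) or with library totals (0.167).

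Mitosis promoters carry 2 known elements, the cell cycle homology region (TTTGAA) and the CCAAT box (CCAAT), searched on both strands in the same windows. The first was in 13 of 18 list genes with a window (72.2%), against 17.9% of all windows and 14.8% of genes tested. The CCAAT box was in 16 of 18 (88.9%), against 37.4% and 41.9%. Genes called higher held the first in 17.7% and the CCAAT box in 39.1%, and genes called lower in 13.3% and 41.4%. Lists with few called genes also held the CCAAT box often, such as cholesterol synthesis (93.8%) and protein folding (85.7%), and others less, such as glycolysis (37.5%). The box is thus not particular to the mitosis list. The window of Ccnb2 (chr9:70421505-70421804, minus strand) is shown because this gene moved in both NZO/HlLtJ and C57BL/6J and holds 2 matches to TTTGAA and 3 to CCAAT, in capitals on the strand of the gene.
Ccnb2: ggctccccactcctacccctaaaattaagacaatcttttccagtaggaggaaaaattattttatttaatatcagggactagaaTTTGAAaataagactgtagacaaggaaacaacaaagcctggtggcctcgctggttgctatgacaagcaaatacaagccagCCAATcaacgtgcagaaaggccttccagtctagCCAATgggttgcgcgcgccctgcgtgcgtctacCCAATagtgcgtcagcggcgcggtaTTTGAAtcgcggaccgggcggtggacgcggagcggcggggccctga

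**Figure D3:**
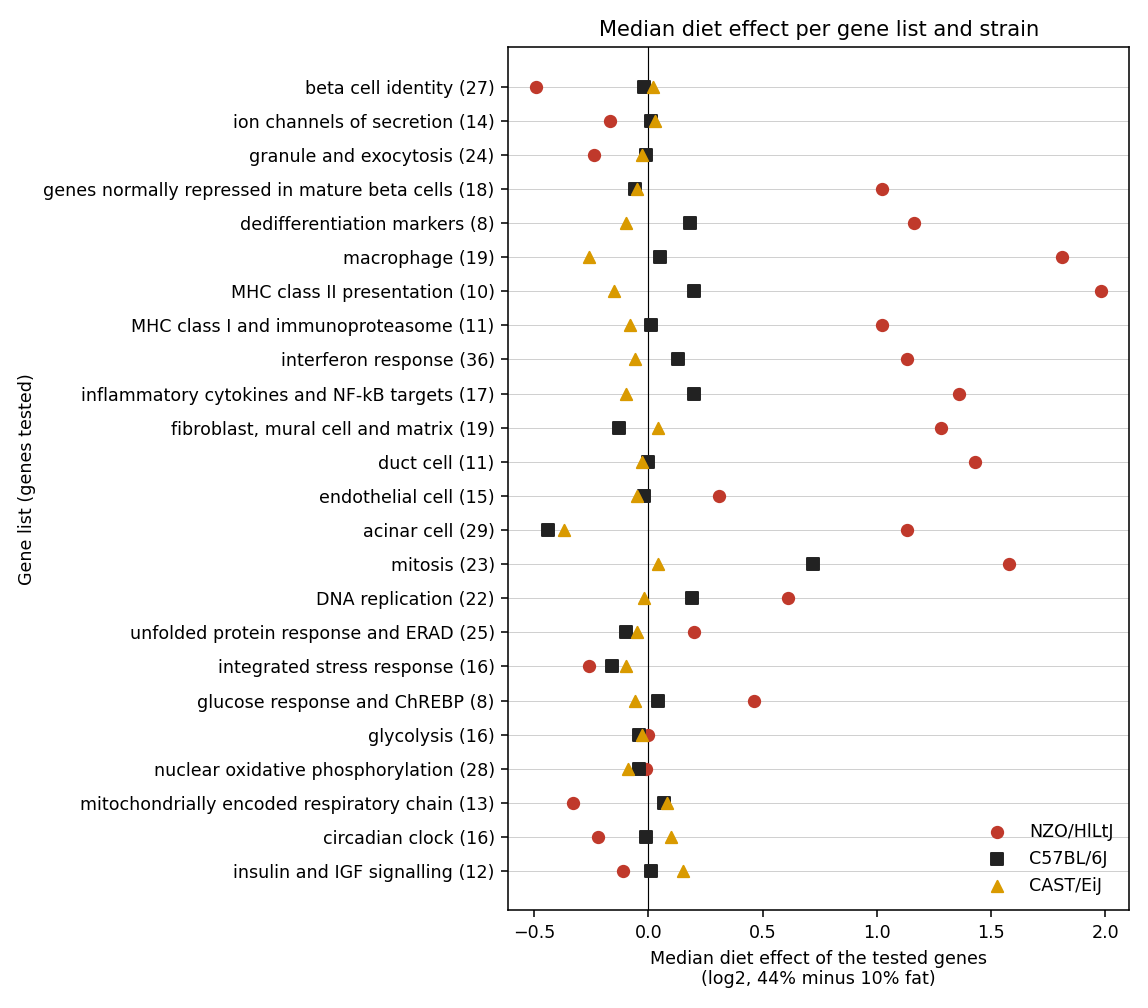
Median diet effect (horizontal axis, log2, 44% minus 10% fat) of the tested genes in each of 24 gene lists (vertical axis, with the number of genes tested) for NZO/HlLtJ (circles), C57BL/6J (squares) and CAST/EiJ (triangles). The circles stand apart from 0 for immune, matrix, duct and division lists above it and for beta cell identity below it (-0.49), and the other strains lie, for the lists drawn, between -0.26 and 0.20 apart from mitosis in C57BL/6J (0.72) and acinar genes in both (-0.44 and -0.37).

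Stress pathways of protein folding moved little as a mean over the sexes. Of 25 genes of the unfolded protein response and of protein disposal at the endoplasmic reticulum, 3 were higher and 0 lower, with a median of 0.27 (5 higher without NZO/HlLtJ male 10% fat replicate 3). The 3 called with all libraries were Derl3 (1.40, SE 0.32, adjusted p = 0.00115), Edem2 (0.84, SE 0.20, adjusted p = 0.00161) and Edem1 (0.60, SE 0.19, adjusted p = 0.0173), all parts of the disposal route. Edem1 lost its call with library totals (adjusted p = 0.0646) and with the acinar score (0.0702). Of 16 genes of the integrated stress response 4 were lower (25.0%, against 14.6% of all genes tested) and 0 higher. Its transcription factors Atf5 (-0.94, SE 0.17, adjusted p = 0.000106) and Atf4 (-0.39, SE 0.15, adjusted p = 0.0459), the lipoprotein receptor Vldlr (-0.72, SE 0.15, adjusted p = 0.000347) and the stress sensor Sesn2 (-0.49, SE 0.14, adjusted p = 0.00722) made up this group. Of these, Atf4 lost its call under 3 alternatives and when many single libraries were left out. Of 15 antioxidant genes 3 were higher and 2 lower, near the shares of all genes tested (15.0% and 14.6%), and 1 was higher without the mixed libraries or with library totals and 1 lower without NZO/HlLtJ male 44% fat replicate 3. Their members include Cat, catalase, at 1.31 (SE 0.28, adjusted p = 0.000758) and Nqo1, a quinone reductase, at -1.29 (SE 0.22, adjusted p = 5.92e-05).

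Genes that answer to glucose through the factor ChREBP split. Of 8, 5 were higher and 2 lower, and 3 were higher with library totals or 2 when NZO/HlLtJ male 10% fat replicate 1 was left out. Txnip, an inhibitor of thioredoxin, was at 139 to 287 CPM in NZO/HlLtJ females on 10% fat and at 224, 671, 506 and 945 CPM on 44% fat, where replicate 1 stayed within the 10% range. In the males it was at 466, 428 and 872 CPM against 1190, 1460 and 1200 CPM. Its contrast was 1.05 (SE 0.23, adjusted p = 0.000911), with diet effects of 1.26 in NZO/HlLtJ, 0.33 in C57BL/6J and 0.10 in CAST/EiJ, and its paralog Arrdc4 gave 1.09 (SE 0.22, adjusted p = 0.000433). The gene for ChREBP itself, Mlxipl, gave -0.88 (SE 0.22, adjusted p = 0.00242), and Khk, ketohexokinase, gave -0.33 (SE 0.11, adjusted p = 0.0186), with an adjusted p of 0.106 without NZO/HlLtJ male 10% fat replicate 2.

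Other metabolic lists had members in both directions, where 15.0% of all genes tested were higher and 14.6% lower. The higher shares were 31.2% in glycolysis, 28.6% in hypoxia and 33.3% in fatty acid oxidation. The lower shares were 12.5%, 35.7% and 5.56% in the same order, so that only hypoxia exceeded all genes there. Of 16 glycolysis genes 5 were higher and 2 lower, with a median of 0 (2 higher without the mixed libraries, 1 with library totals, 2 without NZO/HlLtJ male 10% fat replicate 1). Eno1, the general enolase, had a contrast of 0.59 (SE 0.11, adjusted p = 0.000234, and 0.103 with library totals), against -0.73 for the endocrine Eno2. Of 14 hypoxia genes 4 were higher and 5 lower, among them Pdk1, which restrains pyruvate dehydrogenase (0.85, SE 0.17, adjusted p = 0.000406), and Bnip3, a factor of mitophagy (-0.54, SE 0.10, adjusted p = 0.000171). Of 18 fatty acid oxidation genes and targets of PPAR 6 were higher and 1 lower (2 and 2 without the mixed libraries, 1 higher with library totals). Cd36, a fatty acid transporter, gave 1.57 (SE 0.41, adjusted p = 0.00404), and Ucp2, an uncoupling protein, 0.44 (SE 0.11, adjusted p = 0.00233, and 0.339 with library totals).

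In lipid synthesis the counts were near the shares of all genes tested (15.0% higher and 14.6% lower), apart from the lack of higher genes in cholesterol synthesis. Of 15 genes of fatty acid synthesis 2 were higher and 3 lower, 5 without NZO/HlLtJ male 10% fat replicate 3. The desaturase genes Fads2 (0.83, SE 0.13, adjusted p = 1.54e-05) and Scd1 (1.03, SE 0.25, adjusted p = 0.00263) had positive contrasts, and the elongase Elovl5 gave -0.53 (SE 0.11, adjusted p = 0.000756). Of 24 cholesterol synthesis genes 3 were lower and 0 higher, with a median of -0.02 that turned to 0.02 or 0.03 under 4 alternatives. The 3 became 1 without the mixed libraries or NZO/HlLtJ male 10% fat replicate 1, and 5 without replicate 3 of that group.

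Respiratory chain genes are encoded in mitochondria and in the nucleus, and the lists were not tested against each other. Of 13 encoded in mitochondria, 9 were lower and 0 higher, with a median of -0.42, but 3 were called without the mixed libraries, 2 with the acinar score and 3 after leaving out replicate 1 of the NZO/HlLtJ males on 10% fat. Of 28 encoded in the nucleus, 3 were higher and 3 lower, and 0 and 1 without the mixed libraries, shares below those of all genes tested. mt-Nd5 gave -0.55 (SE 0.14, adjusted p = 0.00354) and mt-Co1 -0.47 (SE 0.15, adjusted p = 0.0156). The value of mt-Co2 (-1.28, SE 0.40, adjusted p = 0.0158) rested on a diet effect of 1.61 in CAST/EiJ, where its level goes down to 2.68 CPM against 580 to 1480 CPM in NZO/HlLtJ. Without the mixed libraries it was -0.35 and not called (adjusted p = 0.3). The call for mt-Co1 was lost with the acinar score and when that replicate 1 was left out.

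Of 16 clock genes 4 were lower (25.0%, against 14.6% of all genes tested) and 0 higher. Of these genes 1 was lower without NZO/HlLtJ female 10% fat replicate 3 and 2 with RLE size factors. Clock gave -0.49 (SE 0.09, adjusted p = 0.000228) and Nr1d2, a repressor of the clock, -0.57 (SE 0.21, adjusted p = 0.0391). None of 12 immediate early genes was called. Of 12 genes of insulin and IGF signalling 3 were lower (25.0%) and 0 higher, and 6 lower without CAST/EiJ female 10% fat replicate 2. Called with all libraries were Irs1, the first substrate of the receptor (-0.72, SE 0.15, adjusted p = 0.000564), Igf1r, the IGF receptor (-0.72, SE 0.18, adjusted p = 0.00234), and Foxo1, the factor that insulin restrains (-0.22, SE 0.08, adjusted p = 0.0397), which lost its call under 6 alternatives. Prlr, the prolactin receptor, was the 1 of 5 prolactin and serotonin genes called (-0.88, SE 0.21, adjusted p = 0.0018), and 3 were called with library totals.

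Within females alone the contrast held 1551 higher and 1435 lower genes, together 14.7% of those tested, and within males 2049 higher and 1830 lower, together 19.1%. The difference between the sexes, males minus females, passed for 195 genes higher (0.96%) and 166 lower (0.817%). It rested on few libraries. Without NZO/HlLtJ male 44% fat replicate 3 it passed for 25 and 14 genes, and without all 5 mixed libraries for 8 and 3. With library totals the counts were 75 and 3. Sample numbers in the labels fall into 3 series, and within each sex of NZO/HlLtJ they differ between the diets: series 80 paired 10% females with 44% males, series 89 did the reverse, and series 76 all 4 groups. With the series as a factor the counts were 497 and 712, and series and sex difference cannot be told apart in series 80 and 89.

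Beta cell identity and protein folding were the lists with most members called in this difference. Of the 27 identity genes, 6 were lower in males than in females and 0 higher, with medians of the contrast of -0.21 in females and -0.93 in males, and 0 were called without the male 44% fat replicate 3 but 19 with the number series in the model. Cib3 differed by -3.40 (SE 0.69, adjusted p = 0.0103), Gipr by -1.65 (adjusted p = 0.0215) and Ucn3 by -1.5 (adjusted p = 0.0462), each without a call when that library was left out. The call for Ucn3 was kept in 15 of the 45 fits that left out 1 library, and that for Cib3 and Gipr in 44. Ins1 was at 28100 to 41100 CPM in NZO/HlLtJ females on 10% fat and 40200 to 59400 CPM on 44% fat. In the males it was at 42300, 51600 and 58200 CPM against 29300, 33300 and 13500 CPM, the lowest value being that of the mixed library. The Ins1 contrast was 0.63 in females (adjusted p = 0.0653) and -0.94 in males (adjusted p = 0.0117), and the difference of -1.57 had an adjusted p of 0.0217. Without the male 44% fat replicate 3 it was -1.26 (adjusted p = 0.0724). Gcg differed the other way, by 1.54 (adjusted p = 0.0489, and 0.183 without that library), a call kept in 13 of those 45 fits.

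Of the 25 protein folding genes, 13 were higher in the contrast within females, with a median of 0.82, and 0 higher and 1 lower within males, with a median of -0.31. The difference passed for 6, all lower in males, and for 0 without the male 44% fat replicate 3 but 11 with the number series in the model. Derl3 (chromosome 10, 75893398 to 75895941) was at 10.3 to 18.2 CPM in NZO/HlLtJ females on 10% fat and 44.8 to 101 CPM on 44% fat, without overlap. In the males it was at 40.9, 39.0 and 72.1 CPM against 45.9, 59.4 and 38.3 CPM, so that the males on 10% fat already stood above the females. The Derl3 difference was -3.07 (adjusted p = 0.0125) and that of Creld2, a secreted stress protein, -2.17 (adjusted p = 0.0424). In the other direction Tenm4, a surface protein of neurons, went from 14.5 to 18.3 CPM down to 8.39 to 13.2 CPM in females and from 7.49 to 8.8 CPM up to 13.7 to 21.1 CPM in males, and differed by 1.74 (adjusted p = 3.74e-05). The mitosis list had a median of 1.44 in females and 0.86 in males with 0 of its genes called in the difference, and 0 of the macrophage genes were called in it.

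**Figure D4:**
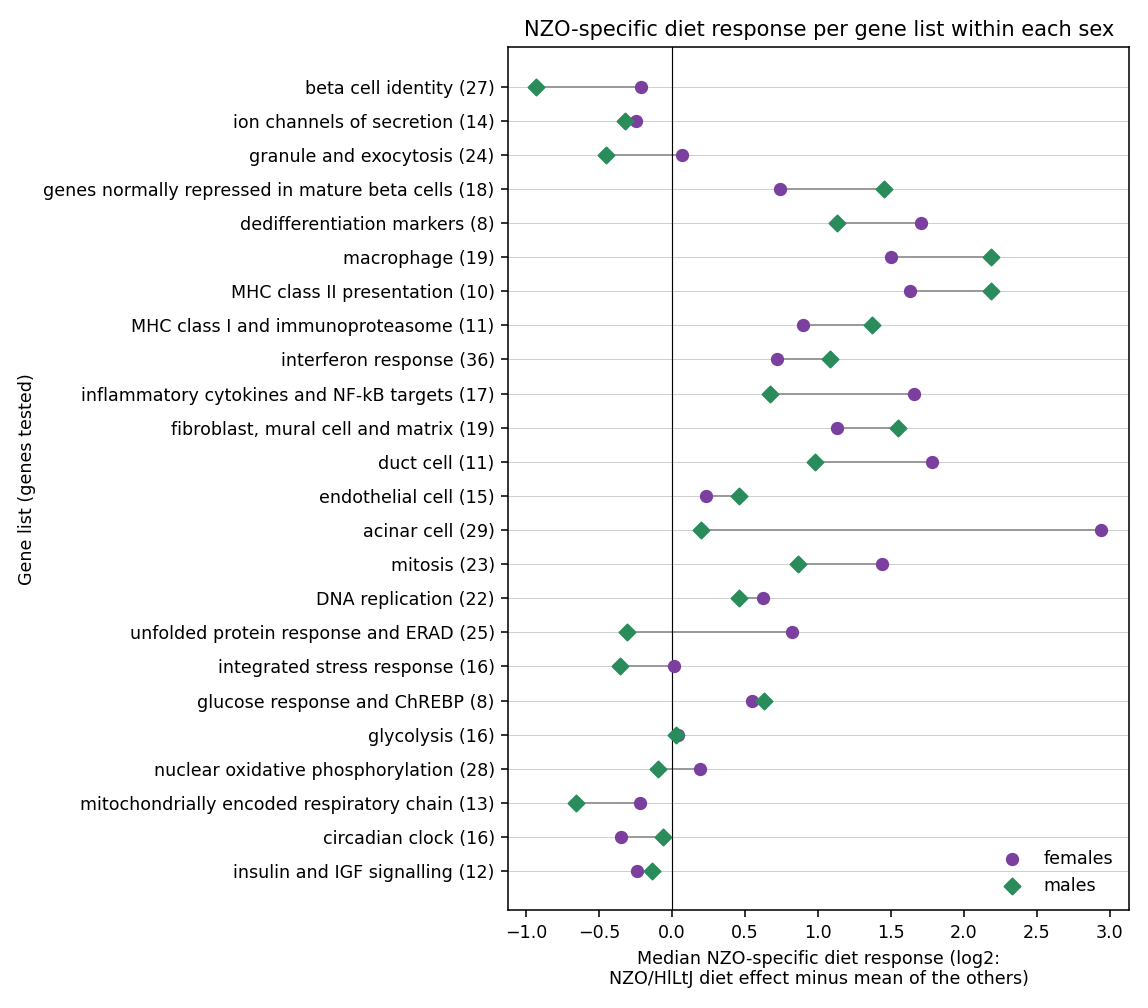
Median contrast (horizontal axis, log2, NZO/HlLtJ diet effect minus the mean of the others) of the tested genes in each of 24 gene lists (vertical axis) within females (circles) and males (diamonds). Of the lists shown, females and males lie on opposite sides of 0 for granule genes (0.07 and -0.45), protein folding (0.82 and -0.31), the integrated stress response (0.01 and -0.36) and nuclear oxidative phosphorylation (0.19 and -0.10). Over all 40 lists this was so for 14, among them alpha (-0.35 and 0.53), delta (-0.68 and 0.46) and Reg genes (2.88 and -0.77), which are not drawn.

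The genes that answered to diet in the other strains and not in NZO/HlLtJ were few. Those called in the mean of the others and not in NZO/HlLtJ were 4. Mc5r (-1.80, adjusted p = 0.0172) had diet effects of 2.79 in C57BL/6J, 0.57 in CAST/EiJ and -0.12 in NZO/HlLtJ, and was not called without the mixed libraries (adjusted p = 0.059). Tpst2, which adds sulfate to tyrosines, gave 0.24 (adjusted p = 0.0219), with -0.15, -0.29 and 0.02 in the same order, and lost its call with library totals, where it was 0.02. The others, 2210418O10Rik and Gm10175, are transcripts near absent in CAST/EiJ. Gm10175 was at 7.36, 3.0, 0.0769 and 2.24 CPM in CAST/EiJ females on 44% fat, high in the 3 mixed libraries, against 0 to 0.136 CPM on 10% fat and 56.1 to 75.6 CPM in C57BL/6J females. Of the 9 genes called for diet in CAST/EiJ, 8 had a median at least 10 times higher in C57BL/6J than in CAST/EiJ. Among CAST/EiJ libraries, Rpl9-ps6, Rpl19-ps11, Gm9843, Gm10335 and Gm12174 were, like Gm10175, high only in the mixed females on 44% fat. Rpl19-ps11 was at 24.4, 13.4 and 8.5 CPM in replicates 1, 2 and 4 of that group, against 0.487 CPM in replicate 3. 9930111J21Rik2 and 2210418O10Rik were also highest in a mixed library. The exception was Umodl1, which reached 13.5 and 2.19 CPM in CAST/EiJ males on 44% fat, replicates 2 and 3, which are not mixed. Its level in the females was at most 1.67 CPM. The part of the mixed RNA in these calls was not tested.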

How the data were processed

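RNA-seq of poly(A) RNA from islets was deposited as 1 table of estimated counts per gene and library. Per the submitters' processing notes the build was GRCm38 and DESeq2 was among the tools, while the aligner and the counter are not stated there. The deposited estimated counts were rounded to whole numbers, and library totals of 57.2 to 110 M limit the precision of rare transcripts. Genes were kept by edgeR's filterByExpr over the 12 groups (20306 of 22904), scaled with TMM factors and fitted with edgeR 4.0.16 (R 4.3.3) by the robust quasi-likelihood test on 1 mean per group, with Benjamini-Hochberg adjustment over all genes tested and a threshold of 0.05. The SE is the log2 value divided by the root of F, and is lacking for 329 genes. Counts were also simulated for 19284 genes, with 1 spread for all genes and no differences between groups but the changes placed in them. There, 88 of 100 genes changed by 1 on the log2 scale and 100 of 100 changed by 2 were recovered in the contrast, with 7 unchanged genes called. Changes were placed only in genes above a low mean count, and mixed libraries or uneven acinar RNA were not simulated. These shares therefore do not carry over to the real libraries.

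The contrast, the 40 gene lists and the tests were chosen with earlier results of these data known. Among genes also called against both other strains with the same sign, with a mean of at least 1 CPM and a standard symbol, the 10 per direction of smallest p and the 6 of largest change are named, and further up to 6 members per list, up to 6 per pattern of calls and 5 per direction of the sex difference, besides hormones and markers named for their role. Promoter windows and their motifs came from RefSeq (GRCm38.p6). Alternatives were other scalings and filters, DESeq2 1.42.0, limma-trend (limma 3.58.1), the number series or an acinar score as a term, leaving out the 5 mixed libraries or each library in turn and, added after seeing the data, the older quasi-likelihood method of edgeR.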

Additional observations from a re-analysis of the deposited data

Results flagged for a closer look

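The counts of 3037 higher and 2968 lower genes are themselves tests of a difference in diet effect between strains. The diet response in NZO/HlLtJ, minus that of the other strains, also differed between males and females for single genes, given here as males minus females on the log2 scale. Positive values were 1.74 for Tenm4, 1.84 for Lonrf2, 2.20 for Gfod1, 1.88 for Sema3e, 1.64 for Cacna2d2 and 1.54 for Gcg. Negative values were -3.73 for F13a1, -2.05 for Srl, -1.88 for Dcx, -1.81 for Car10, -1.39 for Sfxn2, -3.40 for Cib3, -1.5 for Ucn3, -1.65 for Gipr, -1.57 for Ins1, -3.07 for Derl3 and -2.17 for Creld2. Tenm4, Lonrf2, Gfod1, Sema3e, Cacna2d2 and F13a1 were called under every alternative run and with each library left out. Cib3, Gipr, Ins1, Derl3, Ucn3, Gcg and Creld2 were not called without NZO/HlLtJ male 44% fat replicate 3. It was the only one of the 45 libraries to end the call for Cib3, Gipr, Ins1 and Derl3, while Ucn3 kept the call in 15, Gcg in 13 and Creld2 in 24 of the 45 fits without 1 library.

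Single libraries stood far from the other 3 of their group in 9 of 135 pairs of gene and group (15 genes, 9 groups of 4), by Dixon's criterion, which chance meets in about 1 group of 20. Groups of 3 were not tested. Dbi was high at 19.7 CPM in C57BL/6J male 44% fat replicate 1, at 23.7 CPM in CAST/EiJ female 10% fat replicate 4 and at 22.8 CPM in NZO/HlLtJ female 10% fat replicate 2. Eno2 was low at 110 CPM in CAST/EiJ female 10% fat replicate 4 and high at 155 CPM in CAST/EiJ female 44% fat replicate 3. In CAST/EiJ females on 10% fat, Cck was high at 0.47 CPM in replicate 2, Kif11 at 2.54 CPM in replicate 1 and Derl3 at 50.9 CPM in replicate 4. That replicate 4, which also gave outliers of Dbi and Eno2, had the lowest TMM factor of all libraries (0.4856). Txnip was low at 177 CPM in CAST/EiJ female 44% fat replicate 1, a mixed library.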

How the results depend on the processing

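With library totals the contrast held 1313 higher genes, against both strains 439 higher and 766 lower, and in the sex difference 75 higher and 3 lower. Without the 5 mixed libraries these counts were 1832, 509 and 724, and 8 and 3. The acinar score left 977 lower genes against both strains and gave 364 lower in the sex difference. The sex difference had 411 and 258 genes with at least 1 CPM in 6 libraries, 497 and 712 with the number series and 591 and 388 with DESeq2. Leaving out 1 library gave 2172 to 3615 higher and 2317 to 3552 lower genes in the contrast, 937 to 2321 and 967 to 2304 against both strains (in each case lowest without NZO/HlLtJ male 10% fat replicate 1 and highest without replicate 3), and 25 to 374 and 14 to 428 in the sex difference, lowest without NZO/HlLtJ male 44% fat replicate 3. No gene called in the contrast was called in the opposite direction under these settings. The share of higher genes was 50.6%, and 57.2% with RLE size factors, 56.9% with DESeq2 and 32.2% with library totals.

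Of 1370 values of named genes under the alternatives, 1300 kept their call and direction, 64 lost the call and 6 changed sign, none of these called. Gcg (0.10) became -0.10 with library totals and -0.01 without the mixed libraries. Dsn1 (-0.02) became 0.01 with RLE size factors and DESeq2, 0.02 with at least 1 CPM in 6 libraries and 0.03 with the acinar score, and ranged from -0.08 to 0.02 with single libraries left out. With 1 library left out, 5972 of 6165 values kept call and direction and 183 lost the call. No paired analysis was possible because the sample numbers in the labels are unique to each library, and replicate numbers here follow accession order. The cause of these changes was not tested.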
